A study of Mus musculus with 12 samples.

Results

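The data compared here were raw RNA sequencing counts of sorted mouse follicular B cells before and after 4 h in culture, and the quantity examined was the difference between genotypes in the change that culture brought. All 12 of the 12 libraries in the series took part, since that difference needs every group. Genes were taken by symbol from the 12837 listed at both times, of 13574 listed at either, and 11572 of them passed a filter on low counts and were tested. The interaction of a gene is its log2 fold change with culture in WT cells minus that in KO cells, so a positive value means a change that was higher (more upward, or less downward) in WT and a negative value a change that was higher in KO.

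Each of the 4 groups held 3 libraries of splenic follicular B cells (CD21/35- CD23+ by the sort) from adult male mice. WT mice were Gpr174+/Y. KO mice were Gpr174-/Y, with the only coding exon of *Gpr174* replaced by the gene for the fluorescent protein tdTomato in the germline, so that every cell of the animal, and not only B cells, lacked the receptor before the sort. WT 0 h and KO 0 h cells were taken straight from the sort, and WT 4 h and KO 4 h cells had been kept in complete RPMI medium with serum and no added stimulus.

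GPR174 is a receptor of naive lymphocytes that couples to the stimulatory G protein Gαs. Gαs activates adenylyl cyclase, cyclic AMP (cAMP) then releases the catalytic subunits of protein kinase A, and the kinase phosphorylates transcription factors of the CREB family at cAMP response elements. The kinase also inhibits the salt-inducible kinases, which act on CREB coactivators and on class IIa histone deacetylases, while phosphodiesterases degrade cAMP.

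Library totals ran from 6098941 to 11618787 counts. Among sets of marker genes for other cells, summed over the genes listed in the tables and given as CPM (counts scaled to library size), T cell markers stood at 23.9 to 46.3 CPM in all 12 libraries, and macrophage and monocyte markers stood at 104 to 123 CPM at 0 h, 56.6 to 82.9 CPM after culture of WT cells and 50.2 to 64.1 CPM after culture of KO cells. Granulocyte markers were highest in KO replicate 2 at both times, at 134 CPM and 122 CPM, against 20.8 to 86.3 CPM in the other 10 libraries. Erythroid markers, of which 5 of 9 were in the tables, were more abundant, at 790.5 to 2437 CPM at 0 h and 671.9 to 1725 CPM at 4 h, again highest in KO replicate 2 at both times, and none of the 5 was called in the interaction, whose median over them was 0.59. The part of these cells in the results was not tested. Follicular B cell markers, 12 of 14 of which were in the tables, summed to 9798 to 10841 CPM at 0 h and at 4 h to 7709 to 8185 CPM in the WT libraries against 8734 to 8985 CPM in the KO libraries. The gate's own 2 markers were both transcribed at 0 h, *Fcer2a* (CD23) at 1532 CPM in WT and *Cr2* (CD21/35) at 1070.1 CPM, although the labels give the gate as CD21/35-. The interferon-stimulated genes set 1 library apart: their mean log2 CPM was 4.93 in WT 4 h replicate 3 and 3.77 and 3.78 in the other WT 4 h libraries.

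*Gpr174* itself (chromosome X, 107255878 to 107296769, GRCm38, as for all positions here) was counted in every library. It stood at 149.6, 149.5 and 157 CPM in the WT 0 h libraries and at 163, 169 and 153 CPM in WT 4 h. KO 0 h libraries held 73.4, 76.7 and 74 CPM and KO 4 h libraries 118, 106 and 105 CPM. KO libraries were thus below WT libraries at both times without overlap, and rose toward them with culture. The interaction was -0.47 ± 0.092 (± standard error, n = 3 libraries a group), with an adjusted p of 0.00208 by edgeR's quasi-likelihood test with Benjamini-Hochberg adjustment over all genes tested. Reads in the deleted exon could not be separated from those outside it in counts per gene.

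Culture changed 739 genes differently in the 2 genotypes at an adjusted p under 0.05, which is 6.39% of the genes tested. These interaction DEGs (differentially expressed genes) comprised 283 whose change was higher in WT (2.45% of genes tested) and 456 whose change was higher in KO (3.94%). Leaving out KO 0 h replicate 1 left 497 interaction DEGs (186 on the WT side), and 448 of the 739 kept their call in all 12 fits that left out 1 library. Effects were mostly moderate: the median size of the interaction was 0.57 on the log2 scale over the 739, and 117 exceeded 1, which is a 2-fold difference between the changes. The large ones lay more often on the WT side, with 79 above 1 and 38 below -1, and the medians were 0.67 and -0.50. Over all genes tested the median interaction was -0.0011 and the median standard error 0.167. In bulk RNA, fewer cells of a type and less RNA per cell cannot be told apart, so each value is a share of the RNA of all cells in a sample.

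**Figure D1:**
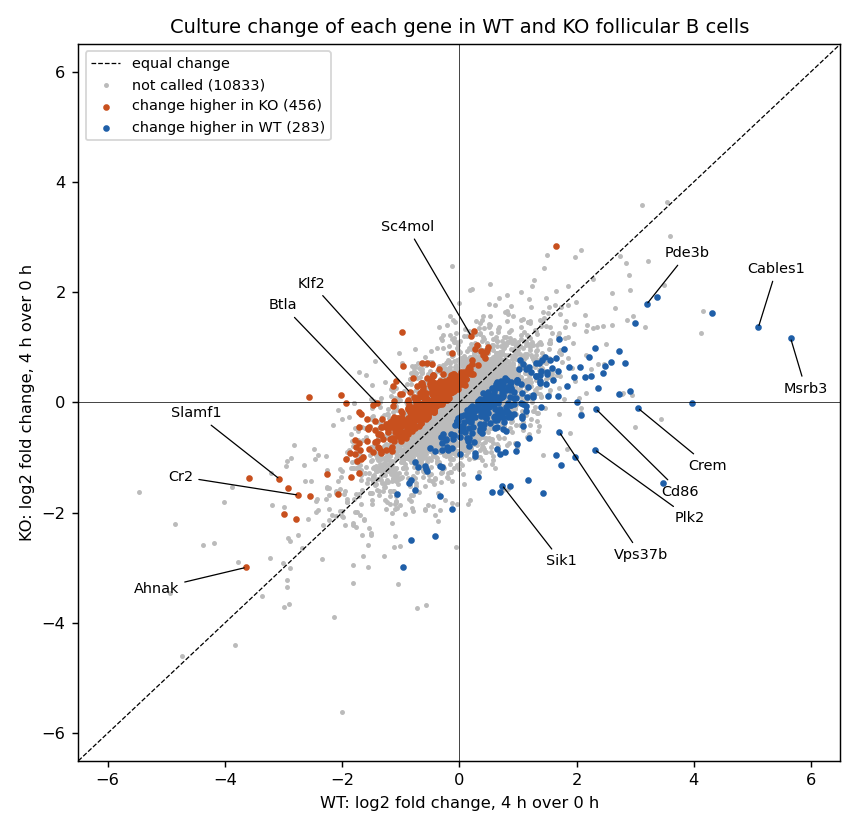
Log2 fold change of each of the 11572 genes tested with 4 h of culture in WT (horizontal axis) and in KO cells (vertical axis), with the 739 interaction DEGs in colour and the line of equal change dashed. The 283 genes in blue lie below the line and the 456 in orange above it, and *Cables1*, *Msrb3*, *Crem* and *Cd86* stand far to the right at KO changes between -0.12 and 1.37.

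WT cells were the ones that moved further. By the size of the log2 fold change, 552 of the interaction DEGs changed more in WT and 187 more in KO. Among the 283 genes with a change higher in WT, 122 rose in WT and were not called in KO, 60 rose in both and 33 rose in WT and fell in KO. Another 45 fell in KO and were not called in WT, and 21 fell in both, less in WT. Neither change was called for *Rnf145* and *Tnik*. Beside these counts, culture raised 15.1% of all genes tested in WT and 10.3% in KO, and lowered 18% in WT and 13% in KO. These calls come from the same libraries as the interaction and describe it.

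Genes with a change higher in KO were mostly ones that culture lowered in WT. Of the 456, 174 fell in WT and were not called in KO, 154 fell in both, more in WT, and 41 fell in WT and rose in KO. A rise called in KO and not in WT was found for 68, a rise in both for 14, and 5 had neither change called. The median WT change was -1.01 and the median KO change -0.44 in the class that fell in both. In the class called lowered in WT alone the medians were -0.51 and 0.0013.

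**Figure D2:**
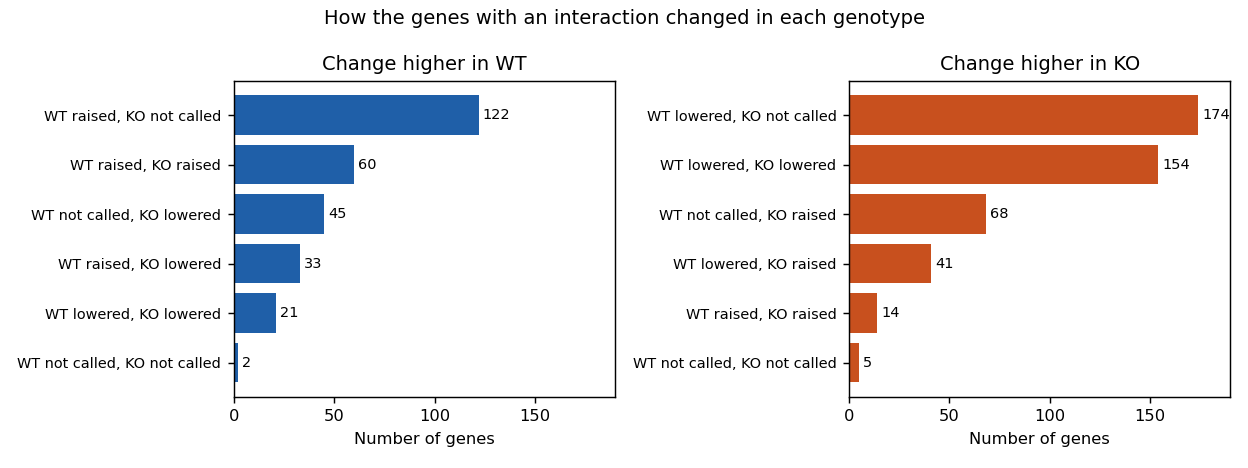
Number of interaction DEGs in each class of culture change, with the change higher in WT on the left and higher in KO on the right. The most frequent classes are a rise called in WT alone (122 genes) and a fall called in WT alone (174 genes).

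Among transcripts known to respond to cAMP, every one that was called had a change higher in WT. Of 23 tested members of this list, 10 (43.5%, against 6.39% of all genes tested) were interaction DEGs. All 10 had a change higher in WT and none higher in KO. The median interaction of the list was 0.75 against -0.0011 over all genes. The list was written with earlier results of these data known, and the study had already reported several members as higher in WT at 4 h. Its count and median therefore describe the list and are not independent support. Over the 12 fits that left out 1 library the count ran from 9 to 13, and 9 of the 10 kept their call in all of them. Of the 23, 11 rose and 5 fell in WT, whereas 5 rose and 9 fell in KO.

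*Crem*, which encodes a CREB-family factor that includes the inducible repressor ICER, rose from 19.4, 14 and 16.5 CPM in WT 0 h libraries to 121, 126 and 164 CPM in WT 4 h. In KO libraries it stood at 16.9, 20.4 and 16.8 CPM at 0 h and 15.1, 16.9 and 18.2 CPM at 4 h. Every WT 4 h library was above every other library, and the KO libraries of the 2 times overlapped. The interaction was 3.15 ± 0.20 (edgeR adjusted p = 6.83e-10), from a WT change of 3.05 ± 0.13 and a KO change of -0.11 ± 0.15.

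*Sik1*, a salt-inducible kinase that holds CREB coactivators in check, moved in opposite directions. Its level was 62.7, 57.8 and 49.6 CPM in WT 0 h and 99.1, 89.9 and 93.1 CPM in WT 4 h, against 54.3, 55 and 59.4 CPM in KO 0 h and 19.1, 18.9 and 21.3 CPM in KO 4 h. The 0 h libraries of both genotypes overlapped, and at 4 h all WT libraries were above and all KO libraries below them. The WT change was 0.73 ± 0.084, the KO change -1.51 ± 0.10 and the interaction 2.24 ± 0.13 (edgeR adjusted p = 2.76e-10).

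The phosphodiesterases, which hydrolyse cAMP, differed among themselves. *Pde3b* rose in both genotypes, from 53.2, 42.5 and 48.1 to 469, 422 and 427 CPM in WT and from 35.8, 44 and 37.7 to 118, 140.1 and 144 CPM in KO, so that its KO change of 1.78 ± 0.095 was smaller than its WT change of 3.2 ± 0.089 and the interaction was 1.41 ± 0.13 (edgeR adjusted p = 2.08e-07). *Pde4d* stood at 9.91, 10.6 and 9.91 CPM in WT 0 h and 44.1, 56.5 and 55.5 CPM in WT 4 h, while KO libraries held 12.5, 11.6 and 10 CPM and then 12.2, 12.1 and 17 CPM. A rise of *Pde4d* was called in WT and not in KO, and its interaction was 2.09 ± 0.22. *Pde4b* was a smaller member of the group at 0.41, and *Pde4a*, at -0.28, did not pass the test. *Nr4a1* (NUR77, an orphan nuclear receptor, 0.88) and *Per1* (0.58) were also called, with *Junb*, *Ier2* and *Fosl2*. List members given here and in what follows with no level in each library, other than those chosen by rule, were named after their values were seen.

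Not every cAMP-responsive transcript took the same course. *Junb*, an AP-1 subunit, stayed at 43.7, 35.3 and 48.2 CPM in WT 4 h, near the 50, 39.2 and 38.6 CPM of WT 0 h, and fell in KO from 45.8, 41.3 and 37.6 to 20, 20.3 and 25.3 CPM. *Ier2*, an immediate early gene, fell in both genotypes, by 0.32 on the log2 scale in WT and by 1.15 in KO. *Fosl2*, another AP-1 subunit, rose in both, to 14, 11.4 and 15.7 CPM in WT 4 h against 1.32, 2.63 and 2.45 CPM in KO 4 h, from 0.448 to 1.07 CPM in all 6 libraries at 0 h. Its interaction of 2.68 ± 0.62 had an edgeR adjusted p of 0.00902 that became 0.052 without KO 0 h replicate 1, and the 0 h libraries held 4 to 12 counts each. *Rgs2*, a regulator of G-protein signalling, was at 0.75 and did not pass the test, although it did in the fit with the replicate number as a block.

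**Figure D3:**
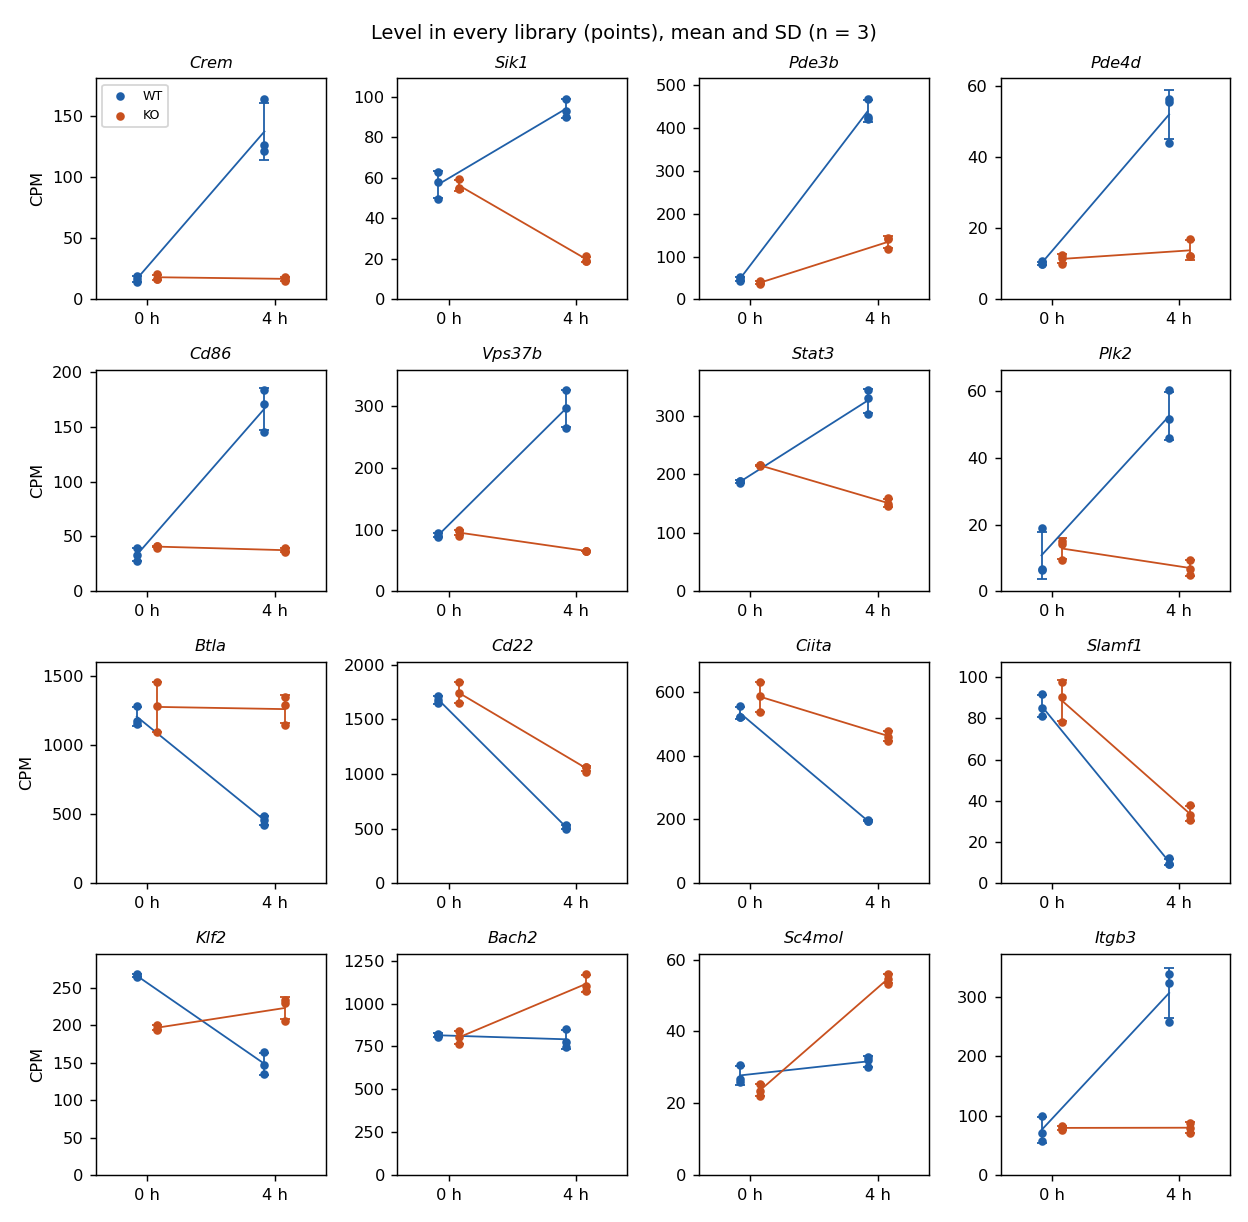
Level in CPM (vertical axis, from 0) at 0 h and 4 h (horizontal axis) of 16 interaction DEGs, with a point per library, lines through group means and bars of 1 SD (n = 3). WT libraries (blue) rise alone for *Crem*, *Cd86* and *Plk2*, fall alone for *Btla*, and stay level while KO libraries (orange) rise for *Bach2* and *Sc4mol*.

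Promoters were read for cAMP response elements to show what such an element looks like in genes with an interaction. RefSeq promoters (250 bases before to 50 after a start site, GRCm38.p6) could be matched by symbol to 9233 of the 11572 genes. The full element TGACGTCA, which reads the same on both strands, was in 3.71% of them, in 2.69% of the 223 matched genes with a change higher in WT and in 1.42% of the 353 with a change higher in KO. Its shorter form TGACG, searched with its reverse complement CGTCA and contained in the full element, was in 36.3%, 37.7% and 31.7%. The AP-1 element TGANTCA, also the same on both strands, was in 5.71%, 7.17% and 8.78%. Over all 27025 genes of the promoter table the shares were 2.03%, 23% and 8.97%. Among 16 matched members of the cAMP list, 14 held the short form and 3 the full one (*Btg2*, *Dusp1* and *Maff*, none of them an interaction DEG). Those 16 included only 6 of the 10 interaction DEGs of the list. *Crem*, *Sik1*, *Pde3b* and *Ier2* had no matched promoter and were not read. Of the interaction DEGs chosen by rule for description that had a matched promoter, 5 held a full element upstream of the start. The 28 bases around it are given 5′ to 3′ on the gene's strand with the element in capitals.
Plk2, chr13:110394972-110394999 (+ strand): gcgctcgccgTGACGTCAcgaggccccg
Cenpe, chr3:135212519-135212546 (+ strand): gactgtcccgTGACGTCAtgacgctgcg
Ldha, chr7:46845782-46845809 (+ strand): gctcccactcTGACGTCAgcgcggagct
Prkar1a, chr11:109650890-109650917 (+ strand): cgaggcgcatTGACGTCAgcagccgaac
Rap1b, chr10:117845999-117846026 (- strand): gctgaacgccTGACGTCAaggcgacacc
The elements begin 62, 34, 12, 49 and 42 bases before the start site in that order. A match is a description of these letters and not a bound site, and the 5 genes did not share a direction, since the change was higher in WT for the other 4 and higher in KO for *Rap1b*.

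*Plk2*, a polo-like kinase whose element is given above, rose in WT alone. Its libraries held 19, 6.5 and 6.79 CPM in WT 0 h, 51.6, 46 and 60.3 CPM in WT 4 h, 14.2, 15 and 9.36 CPM in KO 0 h and 4.87, 9.44 and 6.66 CPM in KO 4 h. All WT 4 h libraries lay above the rest, although WT 0 h replicate 1 was well above its 2 partners. The interaction was 3.17 ± 0.43 (edgeR adjusted p = 3.13e-05), and the call held in all 12 fits without 1 library.

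Among components that make and sense cAMP, both directions occurred. Of 24 tested, 5 (20.8%, against 6.39% of all genes tested) were interaction DEGs. The change was higher in WT for *Prkar1a* and higher in KO for *Adcy7*, *Creb1*, *Atf1* and *Rapgef3*, and the list median was -0.03. *Adcy7*, an adenylyl cyclase of lymphocytes, fell from 243, 265 and 231 to 176, 199 and 187 CPM in WT and stood at 223, 233 and 237 and then 248, 231 and 225 CPM in KO, with an interaction of -0.42 ± 0.089. *Creb1* and its relative *Atf1*, targets of the kinase, fell by 0.35 and 0.87 in WT, while their KO changes were -0.03 and 0.03 and not called. *Atf1* already differed at 0 h, with means of 134 and 91.7 CPM for WT and KO, and the difference (WT over KO) of 0.55 ± 0.12 at 0 h was larger in size than the -0.35 ± 0.13 at 4 h. *Prkar1a*, the regulatory subunit that holds protein kinase A inactive, rose in both, with an interaction of 0.33 ± 0.093 that kept its call in 5 of the 12 fits without 1 library. *Rapgef3* (EPAC1), a cAMP-activated exchange factor, was at -1.91 from levels under 10 CPM and kept its call in 4 of 12, and WT 0 h replicate 2 held 88 counts against 40 and 51 in its partners.

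Costimulatory and activation surface molecules were called in both directions. Of 20 tested, 10 (50%, against 6.39% of all genes tested) were interaction DEGs. *Cd86* and *Cd83* had a change higher in WT, and 8 had a change higher in KO (*Slamf1*, *Slamf7*, *Cd84*, *Il4ra*, *Icosl*, *Pdcd1lg2*, *Slamf6* and *Cd40*, from -1.69 to -0.36). The median of the list was -0.24. Over the 12 fits without 1 library 2 stayed higher in WT and 6 to 9 were higher in KO.

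*Cd86*, a ligand of CD28 (chromosome 16, 36603869 to 36666081), was at 39.2, 27.5 and 32.7 CPM in WT 0 h and at 183, 145 and 171 CPM in WT 4 h. KO libraries held 39.8, 41 and 41.1 CPM at 0 h and 36.9, 36.1 and 39.3 CPM at 4 h. No WT 4 h library overlapped with any other, and the KO libraries at 4 h were slightly below those at 0 h. The interaction was 2.45 ± 0.15 (edgeR adjusted p = 5.51e-10), the WT change 2.33 ± 0.10 and the KO change -0.12 ± 0.11. *Cd83*, which marks activated B cells and stabilises surface MHC class II, rose by 0.26 in WT and fell by 0.72 in KO.

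*Slamf1* (chromosome 1, 171767127 to 171801184), a homophilic receptor of the SLAM family, fell in both genotypes and further in WT. Its levels were 81.1, 92 and 85.2 CPM in WT 0 h and 9.36, 12 and 9.49 CPM in WT 4 h, and 90.2, 97.6 and 78.2 CPM in KO 0 h and 33.1, 37.8 and 30.6 CPM in KO 4 h. The 0 h libraries overlapped, and at 4 h every KO library was above every WT library. The interaction was -1.68 ± 0.16 (edgeR adjusted p = 3.17e-07). *Slamf7*, of the same family, stood at 139, 137 and 136 CPM in WT 4 h and rose in KO to 196, 193 and 199 CPM, from 145, 148 and 136 CPM.

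Several inhibitory surface molecules fell further in WT than in KO. Of 17 tested, 7 (41.2%, against 6.39% of all genes tested) were interaction DEGs. In 6 the change was higher in KO (*Cd22*, *Btla*, *Ceacam1*, *Clec12a*, *Cd200* and *Siglecg*) and in *Fcgr2b* (0.34) it was higher in WT, with a list median of -0.26. *Fcgr2b* was called in 3 of the 12 fits without 1 library, and 5 or 6 of the others were called in each. *Btla*, a receptor for HVEM (chromosome 16, 45224315 to 45257670), fell from 1282, 1151 and 1175 to 421, 488 and 454 CPM in WT. In KO it was at 1279.6, 1452 and 1088 CPM and then at 1344, 1285 and 1142 CPM, within the spread of the 0 h libraries. Its interaction was -1.39 ± 0.12 (edgeR adjusted p = 6.05e-08), nearly all of it from the WT change of -1.4 ± 0.084.

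*Cd22*, a sialic acid-binding brake on the B cell receptor (chromosome 7, 30865402 to 30880342), fell in both. WT libraries went from 1718, 1679.8 and 1646 to 498, 515 and 528 CPM, and KO libraries from 1740.0, 1841 and 1652 to 1063, 1022 and 1068 CPM. At 4 h every KO library was above every WT library. The interaction was -0.98 ± 0.070 (edgeR adjusted p = 4.84e-09). *Ceacam1* followed the same course with an interaction of -0.82 ± 0.10. *Clec12a*, also a gene of myeloid cells, fell in WT from 20.3, 23.7 and 25.5 to 7.26, 8.45 and 6.22 CPM and stood at 15.7, 14.5 and 15.1 CPM in KO 0 h and 13.3, 10.9 and 14.9 CPM in KO 4 h. The summed macrophage and monocyte markers given above were lower at 4 h in both genotypes, and their part in the *Clec12a* value was not tested.

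The called genes of MHC class II presentation shared 1 direction. Of 16 tested, 7 (43.8%, against 6.39% of all genes tested) were interaction DEGs. All 7 had a change higher in KO (*Ciita*, *Rfx5*, *H2-Oa*, *H2-Ob*, *Lgmn*, *H2-DMb1* and *H2-DMb2*) and none higher in WT, with a list median of -0.18. The count higher in KO ran from 4 (without KO 4 h replicate 2) to 8 over the fits without 1 library, and 1 gene was called higher in WT without WT 4 h replicate 2. *Ciita*, the transactivator on which class II transcription depends (chromosome 16, 10480059 to 10528418), fell from 558, 523 and 523 to 198, 195 and 195 CPM in WT, and from 586, 631 and 538 to 479, 460.1 and 448 CPM in KO. Both groups of 4 h libraries were tight and far apart, and the interaction was -1.11 ± 0.082 (edgeR adjusted p = 7.52e-09). *Rfx5*, which binds class II promoters, was lowered in WT (-0.79 ± 0.089) and not called in KO (-0.13 ± 0.087). *H2-Oa*, a chain of the H2-O modulator, differed at -0.57 ± 0.12 and its partner *H2-Ob* at -0.29 ± 0.069. The classical chains were not among the DEGs: *H2-Aa*, *H2-Ab1* and *H2-Eb1*, looked up after the lists were counted, lay at -0.18, -0.16 and -0.17.

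In B cell receptor signalling, 11 of 31 tested genes (35.5%, against 6.39% of all genes tested) were interaction DEGs. Of these, 2 lay toward WT against 9 toward KO, with a list median of -0.09. *Inpp5d* (SHIP-1), a phosphatase that opposes PI3K, rose from 219.5, 223 and 195 to 476, 464 and 482 CPM in WT and held 232, 233 and 239 CPM and then 239, 256 and 254 CPM in KO. The kinase *Fyn* rose in WT alone too, at an interaction of 0.88 ± 0.11. *Cr2*, the complement receptor of the gate, went from 1070.1 ± 45.7 CPM (SD, n = 3) to 159 ± 26.6 CPM in WT and from 961 ± 91.6 CPM to 299.6 ± 22.3 CPM in KO. *Fcer2a* (CD23) showed the same order, with a WT change of -1.54 ± 0.057 and a KO change of -0.44 ± 0.056. The gate was set before culture, so these are changes after the sort. *Cr2* is also in the marginal zone marker set, whose sum was 1219 to 1436 CPM at 0 h, 353 to 398 CPM for WT and 500 to 533 CPM for KO at 4 h, and in which only *Cr2* and *Dtx1* of 8 tested genes were interaction DEGs.

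Of 36 tested factors of B cell identity and quiescence, 12 (33.3%, against 6.39% of all genes tested) were interaction DEGs. The change was higher in KO for 10 and higher in WT for 2 (*Mef2d* and *Klf13*), with a list median of -0.13. The same 10 were called in all 12 fits without 1 library, which added up to 2 more, while the 2 became 1 without KO 0 h replicate 1 or KO 4 h replicate 3. *Klf2*, a factor of resting lymphocytes (chromosome 8, 72319033 to 72321656), showed an exchange of order. Its levels were 266, 265 and 269 CPM in WT 0 h and 201, 195 and 194 CPM in KO 0 h, then 164, 134 and 148 CPM in WT 4 h and 234, 229 and 206 CPM in KO 4 h. WT libraries were all higher before culture and all lower after it, at differences (WT over KO) of 0.44 ± 0.065 and -0.59 ± 0.067, and the interaction was -1.02 ± 0.093 (edgeR adjusted p = 1.85e-07).

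*Bach2*, a repressor that keeps B cells from plasma cell fate, rose in KO from 805, 764 and 839 to 1172, 1100.2 and 1076 CPM and stood at 817, 803 and 825 and then 853, 775 and 747 CPM in WT. *Ikzf3* (Aiolos) fell in both, with a WT change of -0.78 ± 0.057 and a KO change of -0.16 ± 0.057. The class IIa histone deacetylases *Hdac9* and *Hdac7* fell further in WT, with interactions of -1.28 ± 0.11 and -0.78 ± 0.093. For *Hdac9* the libraries went from 98.3, 108 and 105 to 34, 33 and 28.4 CPM in WT and from 106, 101 and 97.6 to 71.8, 73.5 and 79.4 CPM in KO. *Id3*, an inhibitor of E proteins, rose in both and more in KO (-0.72 ± 0.11).

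G-protein-coupled receptors that position B cells split by receptor. Of 23 tested, 10 (43.5%, against 6.39% of all genes tested) were interaction DEGs. The change was higher in WT for 7 (*P2ry10*, *Gpr171*, *Gpr132*, *Ccr7*, *Ccr6*, *Ptger4* and *Cxcr5*) and higher in KO for 3 (*S1pr4* and *Cnr2* among them), with a list median of 0.10. The 3 were reduced to 1 without WT 0 h replicate 3, WT 4 h replicate 3, KO 4 h replicate 1 or KO 4 h replicate 2, while 6 or 7 were higher in WT in each fit. *P2ry10*, an X-linked receptor related to GPR174, rose from 192, 207 and 201 to 521, 490.0 and 565 CPM in WT and held 194, 196 and 189 and then 172, 191 and 182 CPM in KO, an interaction of 1.48 ± 0.086 (edgeR adjusted p = 2.76e-10). *Gpr171* and *Gpr132* also rose in WT, with WT changes of 1.14 ± 0.074 and 1.25 ± 0.072 and KO changes of -0.07 ± 0.075 and 0.13 ± 0.075.

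*Ccr7*, which guides lymphocytes to the T zone, rose in both genotypes, to 519, 463 and 510.1 CPM in WT 4 h from 191, 161 and 179 CPM and to 211, 213 and 236 CPM in KO 4 h from 156, 141 and 162 CPM. *Ccr6*, a receptor for CCL20, fell in KO alone, from 150.3, 152 and 145 to 96.4, 90.5 and 86.3 CPM, against 129, 102 and 124 and 124, 119 and 148 CPM in WT. Among 12 RGS and arrestin genes none was an interaction DEG by edgeR. At an unadjusted p under 0.05 there were 4 (*Rgs2*, *Rgs3*, *Rgs14* and *Arrb1* with the smallest p), against 2012 of all 11572 genes tested. DESeq2 called 0, the fit without WT 0 h replicate 1 called 3 and the fit with the replicate number as a block called 2 (1 in each direction).

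Of 24 adhesion molecules, 4 (16.7%, against 6.39% of all genes tested) were interaction DEGs and 20 were not. *Itgb3*, the β3 integrin chain (chromosome 11, 104608000 to 104670476), rose from 70.8, 57.2 and 98.9 to 258, 323 and 339 CPM in WT and was level in KO at 82.7, 75.5 and 79.5 CPM and 70.7, 79.6 and 88.3 CPM, an interaction of 2.01 ± 0.19 (edgeR adjusted p = 3.52e-07). *Itgb7* fell in both, by 1.12 in WT and 0.64 in KO.

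Of 24 tested cytokine receptors and SOCS genes, 11 (45.8%, against 6.39% of all genes tested) were interaction DEGs. They divided into 6 higher in WT against 5 higher in KO, with a list median of 0.17. The list and the 6 include *Cytip*, which is neither a cytokine receptor nor a SOCS gene. The 5 became 2 or 3 in every fit without 1 library except those without WT 4 h replicate 1 or 3, and *Il21r* and 1 more were called in all 12, whereas the 6 were 4 to 7. *Tnfrsf1b* (TNF receptor 2) rose from 32, 36 and 32.7 to 68.9, 63.2 and 79.2 CPM in WT and stood at 30.8, 29.3 and 30.1 and 22.3, 25.8 and 28.5 CPM in KO. *Socs3*, a feedback inhibitor of cytokine signalling, fell in both and far more in KO, from 28.9, 32 and 22.8 to 5.53, 5.62 and 3.67 CPM against 16.6, 20 and 21.3 to 8.39, 10.8 and 13.2 CPM in WT, an interaction of 1.67 ± 0.27 (edgeR adjusted p = 0.000288). *Cytip*, a partner of cytohesins, rose in WT alone (0.91 ± 0.075), and so did *Cyth1*, cytohesin-1, from 178, 186 and 177 to 511, 526 and 504 CPM in WT against 187, 180.3 and 180.4 and 192, 197 and 203 CPM in KO (1.4 ± 0.073).

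The transcription factors *Stat3* and *Stat4* act downstream of cytokine receptors. *Stat3* (chromosome 11, 100885098 to 100939540) rose from 184, 188 and 189 to 304, 331 and 344 CPM in WT and fell from 215, 214 and 216 to 145, 149 and 159 CPM in KO. *Stat4* rose in both, from 128, 135 and 123 to 482, 510.2 and 503 CPM in WT and from 129, 131 and 128 to 175, 169 and 188 CPM in KO. The SDs within groups were small beside these changes, and the interactions were 1.31 ± 0.081 (edgeR adjusted p = 5.51e-10) and 1.5 ± 0.081 (edgeR adjusted p = 1.02e-10).

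Immediate early genes as a group were not of 1 kind. The 26 tested overlap with the cAMP list in members such as *Junb*, *Fosl2* and *Ier2*, and 8 (30.8%) were interaction DEGs, against 6.39% of all genes tested. A change higher in WT was found for 6 of them and a change higher in KO for 2. The median was 0.15, and of the 2 *Egr3* was called in all 12 fits without 1 library and *Ier5* in 4. *Dusp2*, a phosphatase of MAP kinases, fell in both, less in WT (0.58 ± 0.13). *Dusp5* had an interaction of 2.6 ± 0.62 from 2 to 45 counts a library, and its edgeR adjusted p of 0.0119 became 0.111 without KO 0 h replicate 1. Among 22 NF-kB genes 3 had a change higher in WT, and 1 had a change higher in KO, a share called of 18.2% against 6.39% of all genes tested. *Rel* rose from 337, 364 and 361 to 517, 571 and 587 CPM in WT and was at 360.3, 359.7 and 365 and then 391, 379 and 369 CPM in KO, and *Bcl3* rose in WT and fell in KO (0.93 ± 0.10). *Traf1* kept its call in 2 of the 12 fits without 1 library, and *Ikbkb*, the gene higher in KO, in 7.

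Of 16 genes of the BCL2 family, 2 (12.5%, against 6.39% of all genes tested) were interaction DEGs. Both kept their call in every fit without 1 library. *Bcl2l11* (BIM, which promotes apoptosis) rose from 74.1, 61.5 and 73.4 to 175, 162 and 179 CPM in WT and from 60.8, 59.6 and 71.8 to 109, 104 and 102 CPM in KO, with an interaction of 0.59 ± 0.12 (edgeR adjusted p = 0.00197). *Bcl2*, which opposes it, fell from 311, 231 and 287 to 156, 129 and 140.3 CPM in WT and from 268, 303 and 264 to 220.1, 217 and 195 CPM in KO, an interaction of -0.56 ± 0.13. At 4 h the WT libraries were thus all above KO for *Bcl2l11* and all below KO for *Bcl2*. *Mcl1* (-0.22) and *Pmaip1* (-0.60) did not pass the test.

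Many genes of sterol synthesis rose in KO. Of 34 tested genes of sterol and fatty acid synthesis, culture raised 16 in KO and 9 in WT. Of all genes tested it raised 10.3% in KO and 15.1% in WT. The list held 8 interaction DEGs (23.5%, against 6.39% of all genes tested), and its median interaction was -0.30. The change was higher in KO for 6 of the 8 (*Sc4mol*, *Hmgcs1*, *Sqle*, *Cyp51* and *Mvd* among them). The 6 became 2 when KO 0 h replicate 1 was left out and 3 when replicate 2 of WT 4 h or of KO 4 h was, and *Sc4mol* was called in all 12. *Sc4mol* (methylsterol monooxygenase) stood at 30.6, 26.7 and 25.9 CPM in WT 0 h and 30, 31.9 and 33 CPM in WT 4 h, and rose from 22.1, 25.5 and 23.4 to 53.3, 54.7 and 56 CPM in KO. The KO 4 h libraries lay above all 9 others, and the interaction was -1.01 ± 0.14 (edgeR adjusted p = 3.44e-05). The fatty acid desaturase *Scd1* went the opposite way, falling from 1394 ± 94.3 to 620.4 ± 12.3 CPM in KO and from 1408 ± 39.9 to 1151 ± 59.7 CPM in WT (mean ± SD, n = 3). *Scd2* (0.59), also higher in WT, was called in 3 of the 12 fits without 1 library.

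**Figure D4:**
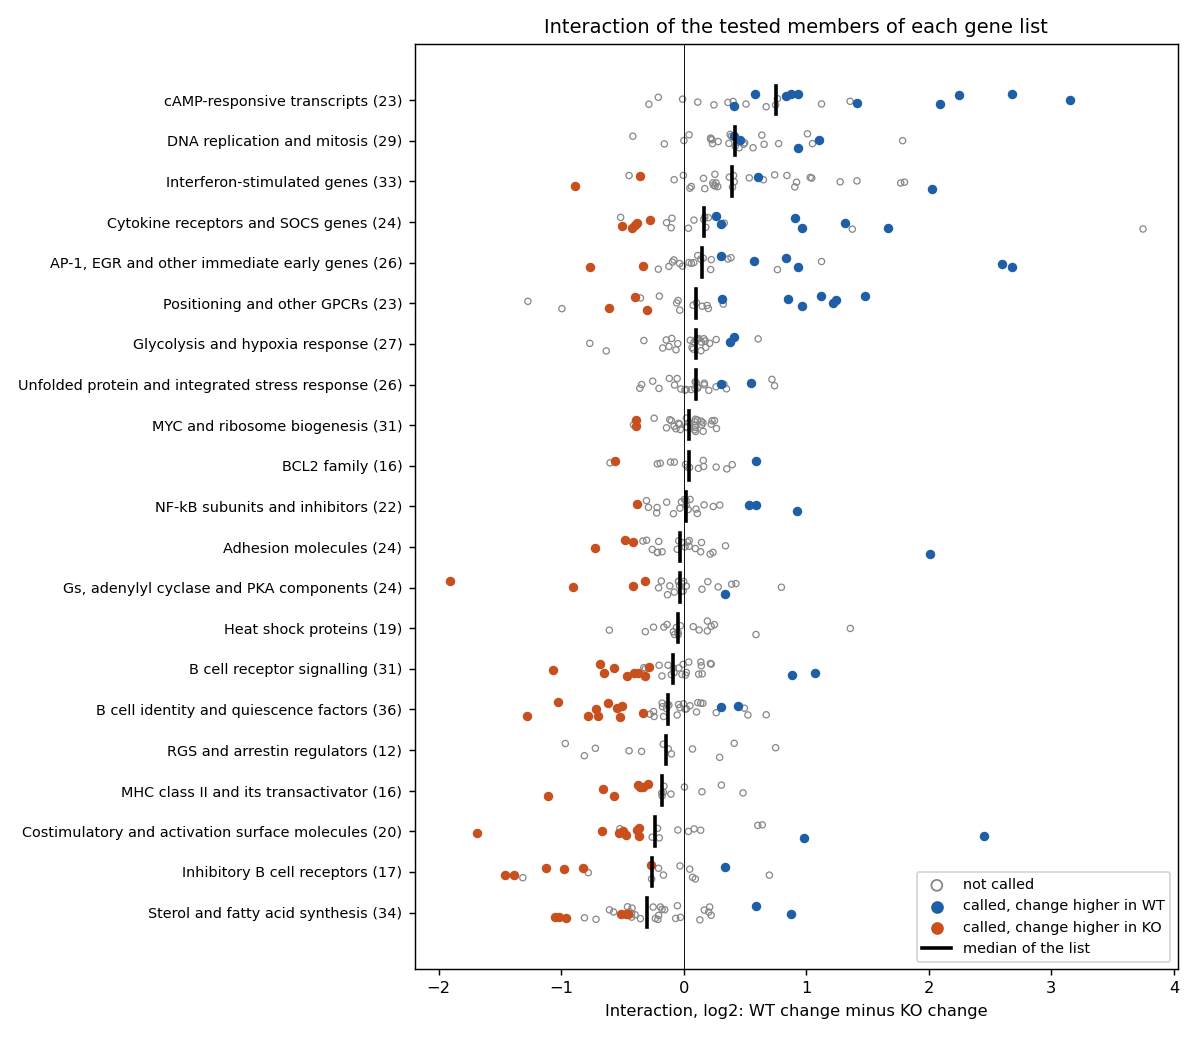
Interaction (horizontal axis, log2) of every tested member of 21 gene lists, ordered by the median of the list (black bar), with the number tested in brackets, interaction DEGs filled and other genes open. The cAMP-responsive transcripts have the highest median (0.75) and sterol and fatty acid synthesis the lowest (-0.30), and MHC class II genes are filled on the KO side alone. The lists were written with earlier results of these data known.

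Genes of DNA replication and mitosis, which small dividing populations express, had a median interaction of 0.42 over 29 tested. Of these, 4 (13.8%, against 6.39% of all genes tested) were interaction DEGs, all higher in WT (*Tk1*, *Cenpe*, *Mcm4* and *Mcm3*). The 4 became 2 when KO 4 h replicate 2, KO 0 h replicate 3 or WT 4 h replicate 3 was left out, and *Tk1* and *Cenpe* were called in all 12 fits. The list was higher in every KO than in every WT library before culture: the mean log2 CPM of its genes ran from 3.31 to 3.63 in the WT 0 h libraries but from 4.07 to 4.31 in those of KO 0 h, against 3.44 to 3.70 for WT and 3.53 to 4.01 for KO at 4 h. The WT libraries of the 2 times overlapped, and all KO 4 h libraries were below all KO 0 h libraries. *Cenpe*, a kinetochore motor, was higher in KO at the start, at 44.5, 34.8 and 48.3 CPM against 16.3, 18.5 and 22 CPM in WT, and overlapped at 4 h, at 25.6, 33 and 41.9 CPM against 25.7, 32.2 and 37.5 CPM. Its interaction of 1.1 ± 0.23 lay at 0 h, where the difference (WT over KO) was -1.16 ± 0.17, against -0.06 ± 0.17 at 4 h.

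The count of interferon-stimulated genes moved with the library that stood apart. Of 33 tested, *Irf9* and *Mx2* had a change higher in WT and *Samd9l* and *Stat2* a change higher in KO, with a median of 0.40. The share called was 12.1%, against 6.39% of all genes tested. The number higher in WT was 9 without WT 4 h replicate 1, 5 without WT 4 h replicate 2 and 1 without WT 4 h replicate 3, the library with the high level. That number was also 1 without WT 0 h replicate 2, KO 0 h replicate 1 or 3, or KO 4 h replicate 1 or 2. *Mx2*, an interferon-induced GTPase, stood at 1.45, 1.25 and 4.85 CPM in WT 4 h, and its edgeR adjusted p went from 0.0254 to 0.32 without replicate 3. *Irf9* (0.61 ± 0.15) and *Samd9l* (-0.89 ± 0.12) kept their calls in every fit without 1 library, and *Stat2* in 3 of 12.

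Metabolic and stress groups had shares of interaction DEGs near the 6.39% of all genes tested, at 6.45% for MYC and ribosome biogenesis, 7.41% for glycolysis and hypoxia and 7.69% for the unfolded protein and integrated stress responses. Among 31 MYC and ribosome biogenesis genes 2 were called higher in KO (*Nop58* and *Npm1*, in 7 and 2 of the 12 fits without 1 library). Among 27 genes of glycolysis and the hypoxia response *Hif1a* (0.38 ± 0.084) and *Ldha* (0.41 ± 0.11, in 5 of 12) were higher in WT. Of 26 genes of the unfolded protein and integrated stress responses, *Eif2ak3* (PERK) rose in both and more in WT (0.55 ± 0.084), and *Hsp90b1* was called in 5 of 12. None of 19 heat shock genes was an interaction DEG by edgeR, and 1 had an unadjusted p under 0.05, against 2012 of all 11572 genes tested. DESeq2 called 0, while the fit without WT 0 h replicate 1 called 1. The 21 lists together held 119 of the 739 interaction DEGs, and 620 were in none of them.

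Beyond the lists, the largest positive interactions belonged to genes nearly silent at 0 h. *Cables1*, a regulator of cyclin-dependent kinases, was at 0.506 to 1.19 CPM in all 6 libraries at 0 h, at 34.4, 28.9 and 37.8 CPM in WT 4 h and at 1.84, 2.27 and 2.31 CPM in KO 4 h, an interaction of 3.74 ± 0.51 (edgeR adjusted p = 3.89e-05). *Msrb3*, a methionine sulfoxide reductase, rested on 0 to 7 counts a library at 0 h, 83 to 202 after culture in WT, against 6 to 12 in KO. *Rnf125*, a ubiquitin ligase, had 3 to 8 counts in every library except those of WT 4 h, which had 50 to 78. *Eng* (endoglin) had the largest value of all named genes, 4.93 ± 1.22, from 31 to 43 counts in WT 4 h and 0 to 12 elsewhere, and lost its call without KO 0 h replicate 2 or 3 (edgeR adjusted p = 0.052 in each). The size of the fitted values of *Msrb3*, *Rnf125* and *Eng* depends on the few counts at 0 h.

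Genes with more reads followed. *Litaf*, induced by lipopolysaccharide in macrophages, rose from 16.1, 14.3 and 17.2 to 120.2, 109.6 and 129 CPM in WT and stood at 21.6, 14.2 and 22.8 and 19.9, 24.6 and 23.2 CPM in KO (2.71 ± 0.19). *Vps37b*, a subunit of the ESCRT-I sorting complex, had the smallest p of the interaction DEGs (edgeR adjusted p = 1.16e-11), with 89.9, 95.1 and 87.9 CPM in WT 0 h, 298, 265 and 325 in WT 4 h, 96.8, 98.5 and 89.9 in KO 0 h and 64.9, 66 and 64.8 in KO 4 h. All WT 4 h libraries were above and all KO 4 h libraries below the 6 libraries at 0 h. *B3gnt7*, a glycosyltransferase, did likewise at lower levels (2.96 ± 0.39). The cytokine gene *Il1b* also rose in WT and fell in KO (2.87 ± 0.50), although KO 4 h replicate 2 lay within the range of the 0 h libraries, from 8 to 67 counts a library. *Il1b* is a gene of myeloid cells as well, and the part of the macrophage and monocyte markers given above was not tested.

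At the other end, *Il18* fell to 2, 3 and 8 counts in WT 4 h from 61 to 84 in WT 0 h, and to 14 to 20 from 26 to 50 in KO (-2.23 ± 0.52). *Cd55*, which protects cells from complement, fell in WT from 1063, 729 and 832 to 580.4, 439 and 500.5 CPM and rose in KO from 633, 729.9 and 525 to 829.8, 985 and 759 CPM (-1.24 ± 0.18). *Fchsd2*, a membrane-remodelling protein, also fell in WT, from 773, 835 and 743 to 532, 515 and 477 CPM, and rose in KO, from 728, 746 and 734 to 919.5, 895 and 883 CPM. *Swap70*, which acts in B cell migration, fell from 1009 ± 40.5 to 406 ± 15.6 CPM in WT and from 954 ± 8.43 to 771 ± 14.7 CPM in KO (mean ± SD, n = 3), an interaction of -1 ± 0.069. *Rpl15*, at -1.43 ± 0.25, with a difference (WT over KO) of 1.22 ± 0.18 at 0 h and -0.21 ± 0.19 at 4 h, has near-identical copies that the counting could split and is uncertain. The same sign was found when the changes were taken as differences of mean CPM for 738 of the 739 interaction DEGs. The exception was *Sdc1* (syndecan-1, a plasma cell marker), which rose from 7.74 to 24.3 CPM in WT and from 2.44 to 17.7 CPM in KO, a smaller gain in CPM and a larger fold change in KO.

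Some interaction DEGs already differed between the genotypes before culture. The genotype difference at 0 h was called for 97 genes (0.838% of those tested), and 42 interaction DEGs were among them, of which 37 had a larger difference at 0 h than at 4 h. Called at 0 h or not, 105 of the 739 had the larger difference at 0 h, 27 of them with a change higher in WT. By fitted value, 359 of the 456 genes with a change higher in KO were higher in WT at 0 h, as were 95 of the 283 with a change higher in WT. The interaction is the genotype difference at 4 h minus that at 0 h, so choosing genes by its sign favours this split. The split over all genes tested was not counted, and all comparisons share the 0 h libraries. For *Lsm14a*, an RNA-binding protein of P bodies, WT 0 h libraries held 320.5, 329.6 and 300.5 CPM and KO 0 h libraries 211, 219 and 215 CPM, and at 4 h WT held 179, 195 and 196 and KO 209, 219 and 229 CPM. The difference (WT over KO) went from 0.56 ± 0.057 to -0.2 ± 0.058, so the WT libraries fell to the KO level and slightly below it. *Rap1b*, a small GTPase that activates integrins, differed by 0.42 ± 0.056 at 0 h and by -0.31 ± 0.059 at 4 h, from 373, 343 and 343 to 158, 141 and 155 CPM in WT and from 267, 266 and 261 to 181, 195 and 188 CPM in KO.

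*Ube2d2*, a ubiquitin-conjugating enzyme, and *Erbb2ip* (Erbin) changed order in the same way. *Ube2d2* stood at 83.8, 82.6 and 86 CPM in WT and 58.6, 59 and 58.9 CPM in KO before culture, and at 56.5, 59.9 and 62.3 and 76, 71.4 and 76.7 CPM after it. *Erbb2ip* differed by 0.25 ± 0.051 at 0 h and -0.23 ± 0.051 at 4 h. *Ahnak*, a giant scaffold protein, had the steepest fall of these genes, from 591, 636 and 685 to 49.1, 54.7 and 49.7 CPM in WT and from 443, 469 and 420.1 to 58.6, 55.9 and 52.7 CPM in KO, and its 4 h libraries were close, at a difference of -0.13 ± 0.079. For these 5 genes the interaction therefore includes a 0 h difference larger than the one left at 4 h.

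**Figure D5:**
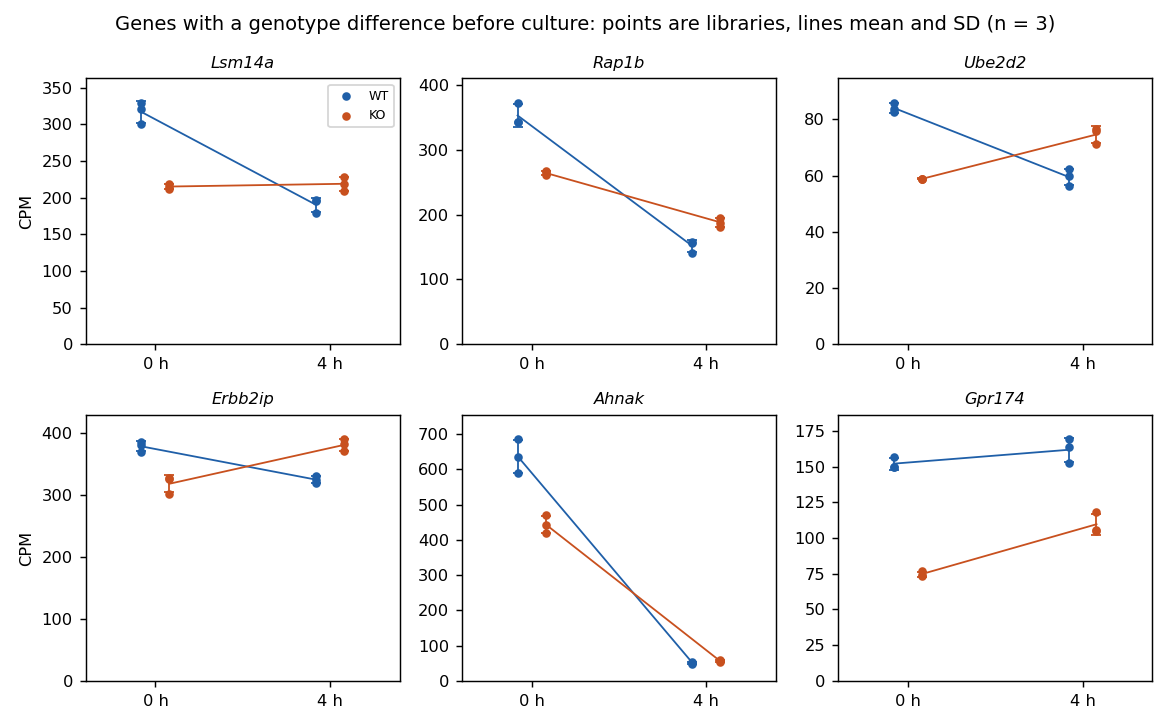
Level in CPM (vertical axis, from 0) at 0 h and 4 h of 5 interaction DEGs with a larger genotype difference at 0 h than at 4 h, and of the targeted gene *Gpr174*, with a point per library and the mean and SD of each group (n = 3). WT libraries (blue) start above KO libraries (orange) in every panel, and at 4 h they are below KO for *Lsm14a*, *Rap1b*, *Ube2d2* and *Erbb2ip* and still above it for *Gpr174*.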

How the data were processed

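RNA was measured in sorted splenic follicular B cells of both genotypes, uncultured or cultured for 4 h. The authors amplified the RNA (NuGEN Ovation V2), prepared KAPA Hyper libraries with NEXTflex barcodes, sequenced single-end reads, used STAR for alignment to mm10 and used HTSeq to count reads per gene. The submitters' processing notes name STAR, HTSeq, DESeq2 and mm10 with no versions. The strand setting and the annotation were not given in the sources used here, so an overlapping or antisense gene could not be told apart from its partner. The authors deposited raw counts per gene, with no normalization, in a table for each time, and every row had at least 10 reads over its 6 libraries. There were 13269 genes listed at 0 h and 13142 at 4 h, joined by symbol.

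Counts were scaled by TMM, filtered with filterByExpr (minimum count 10) and fitted with edgeR 4.0.16 (glmQLFit and glmQLFTest, R 4.3.3) on all 12 libraries with a coefficient for each group. The contrast was (WT 4 h minus WT 0 h) minus (KO 4 h minus KO 0 h), and a gene was called where its p, adjusted by Benjamini-Hochberg over all genes tested, was under 0.05. Levels are CPM computed by edgeR from TMM-scaled totals. Libraries of a group differed beyond sampling noise (chi-square per degree of freedom 1.95 to 9.32), so all were kept. The study gives 3 mice per genotype, and p-values measure the spread between these libraries. Molecular identifiers were not used.

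Genes were described by rule: the 15 largest and 15 smallest interactions among DEGs with a mean of at least 5 CPM in a group, the 3 smallest p-values in each class of culture change and the 4 in each gene list, *Gpr174*, the 5 smallest p-values among DEGs with a larger called difference at 0 h, and the 5 genes with the highest WT level among those in the 4 h table only. The comparison, the lists and the markers were chosen with earlier results of these data known, and the lists share members. Some genes that the rule names are not reported here. No test was run on a list. Promoter sequences came from RefSeq (GRCm38.p6) and gene positions from GENCODE vM21. Alternatives were DESeq2 1.42.0, library totals as the only scaling, no filter, a replicate block, symbols in either table, and leaving out each library.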

Additional observations from a re-analysis of the deposited data

How the results depend on the processing

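The number of interaction DEGs was 764 with DESeq2, 673 with library totals as the only scaling, 724 with no filter on low counts and 739 with genes listed in either table, and 713, 658, 717 and 739 of these were among the 739 of the edgeR fit. Leaving out 1 library gave 497 (without KO 0 h replicate 1) to 743, with 186 to 292 genes higher in WT and 311 to 453 higher in KO. The replicate block, with a coefficient for each genotype and replicate number so that same-numbered 0 h and 4 h libraries were compared, gave 842, of which 718 were shared. Whether the same number marks the same mouse at both times was not stated in the sources used here. Same-numbered libraries of a genotype correlated in their deviations from the group means at -0.0402 to 0.152, above 0.1 in 4 of 6 pairs, and 5 of 6 libraries matched their own number best, a hint of pairing from the data. Under the block the counts higher in WT became 0 for the inhibitory receptors, 1 for MHC class II and 4 for the interferon-stimulated genes. Of 118 interaction DEGs described by rule, 94 kept their call under every one of the 17 alternatives and 24 lost it under at least 1, and none of the 2278 values of described genes changed sign against a call. Genes at a low level in at least 1 group, such as *Eng*, *Dusp5*, *Fosl2*, *Rapgef3*, *Fahd1*, *9030404E10Rik* and *1700001K23Rik*, were among those that lost it, and so were genes with small interactions, such as *Prkar1a*, *Ldha* and *Npm1*. The cause of the lower count without KO 0 h replicate 1 was not tested beyond the loss of a library.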

Other observations

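The 305 genes with no row at 0 h were outside the main fit. In the fit with genes listed in either table, missing rows were taken as no counts and 11581 genes were tested. It called 739, all of them among the 739 of the main fit, so no gene listed at a single time was called. The 5 with the highest WT level among the 305 genes listed at 4 h only were *Nr4a2*, *Ccl4*, *Il1r2*, *Ccl3* and *Gm6277*. *Nr4a2*, an orphan nuclear receptor of the same family as *Nr4a1*, had 47, 45 and 67 counts in the WT 4 h libraries and 17, 13 and 18 in KO 4 h, or 7.23 ± 0.307 CPM and 2.08 ± 0.467 CPM (SD, n = 3). *Il1r2*, a decoy receptor for interleukin 1, had 27, 20 and 33 counts in WT 4 h and 6, 6 and 4 in KO 4 h. *Gm6277* had 10, 24 and 24 counts in WT 4 h and 3, 0 and 1 in KO 4 h. It overlaps the start of *Cables1* on the opposite strand, and the strand setting of the counts was not given. For *Nr4a2*, *Il1r2* and *Gm6277* every WT library was above every KO library, although choosing genes by their WT level favours that order. The chemokine genes *Ccl3* and *Ccl4* did not follow them: *Ccl3* had 40, 10 and 27 counts in WT 4 h and 28, 42 and 42 in KO 4 h, and *Ccl4* had 44, 27 and 35 in WT 4 h and 17, 38 and 25 in KO 4 h, with overlap between the genotypes for both. A gene missing from the 0 h table had fewer than 10 counts over its 6 libraries or was not listed for another reason.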
